A study of Mus musculus with 46 samples.

Results

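Genomic imprinting was examined in mouse synovial sarcoma (SyS), a soft-tissue cancer driven by fusion of the BAF subunit SS18 to an SSX protein, through the RNA levels of 45 imprinted genes that lie outside the Igf2 growth axis. The genes were chosen by name, with earlier results of these data known, as imprinted genes of 9 loci and 8 genes that stand alone. They were 45 of 56980 genes in the hSS2 count table and of 56941 in that of hSS1. The largest locus was the Kcnq1ot1 cluster with 9 of these genes, followed by the Dlk1-Dio3 cluster with 7, the Snrpn-Ube3a cluster with 6 and the Peg10-Sgce cluster with 4. The Peg3 and Airn clusters held 3 each, the Nnat-Blcap and Zrsr1-Commd1 loci were pairs, and Gnas stood alone at its locus.

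RNA sequencing had been performed on 46 mouse tumors, with 1 library for each. All mice carried a conditional human fusion gene in Rosa26, SS18::SSX2 (hSS2) or SS18::SSX1 (hSS1), and all received TATCre protein by limb injection at 8 days of age. The hSS2 tumors comprised 13 with no further allele (hSS2 control), 8 with Pbrm1-fl/fl, 8 with Arid1a-fl/fl and 8 with Arid1b-fl/fl, and the hSS1 tumors comprised 5 controls and 4 with Pbrm1-fl/fl. The floxed gene encodes a subunit of the polybromo complex PBAF (Pbrm1) or of canonical BAF (Arid1a, Arid1b), and is written below as Pbrm1-fl, Arid1a-fl or Arid1b-fl. The same Cre pulse was used to activate the fusion and to remove the floxed exons. Cells or alleles that did not recombine, in stroma or in tumor cells, kept the intact gene. For hSS1 Pbrm1-fl/fl tumors the paper proposes selection for tumor cells that kept an unrecombined Pbrm1 allele. Whole tumors of both sexes were used, the labels give neither age at harvest nor sex for single animals, and the human fusion transcript was not measured against the mouse genome.

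An imprinted gene is transcribed mainly from the copy inherited from one parent, because a differentially methylated region carries a mark that was set in the egg or the sperm. Imprinted genes tend to sit in clusters, in which a long non-coding RNA such as Kcnq1ot1, Airn or Meg3 comes from one parental chromosome and protein-coding neighbors come from the other. Many act in placental and fetal growth or in mesoderm, fall after birth, and can be switched on again in tumors. The zinc finger protein ZFP57 helps to hold the methylation mark by binding the sequence TGCCGC. The counts did not separate the parental copies, so a level below is the sum over both.

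The annotated promoters of 5 genes that passed the test in at least 1 comparison are printed first. The counts were made per gene, so where the counted transcripts start was not measured. Each is the RefSeq window of 300 bases (250 before the start site and 50 after it) of build GRCm38.p6, written 5′ to 3′ along the gene's strand in lower case, with each TGCCGC on either strand in capitals (GCGGCA on the strand shown). Nap1l5 (nucleosome assembly protein 1-like 5, a single-exon paternally expressed gene inside an intron of Herc3) is at chr6:58907077-58907376 on the minus strand. Dio3 (the deiodinase that inactivates thyroid hormone) is at chr12:110278980-110279279 on the plus strand, and Usp29 (a ubiquitin-specific protease) is at chr7:6730333-6730632 on the plus strand. Kcnq1ot1, an antisense non-coding RNA inside Kcnq1, is at chr7:143296498-143296797 on the minus strand, and Airn, the non-coding RNA antisense to Igf2r, is at chr17:12741061-12741360 on the plus strand.
Nap1l5: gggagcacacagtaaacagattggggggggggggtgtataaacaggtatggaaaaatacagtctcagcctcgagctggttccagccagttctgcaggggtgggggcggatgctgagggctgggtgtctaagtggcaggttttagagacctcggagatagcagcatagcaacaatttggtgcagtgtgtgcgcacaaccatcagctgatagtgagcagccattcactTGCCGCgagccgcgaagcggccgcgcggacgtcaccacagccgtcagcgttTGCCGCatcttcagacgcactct
Dio3: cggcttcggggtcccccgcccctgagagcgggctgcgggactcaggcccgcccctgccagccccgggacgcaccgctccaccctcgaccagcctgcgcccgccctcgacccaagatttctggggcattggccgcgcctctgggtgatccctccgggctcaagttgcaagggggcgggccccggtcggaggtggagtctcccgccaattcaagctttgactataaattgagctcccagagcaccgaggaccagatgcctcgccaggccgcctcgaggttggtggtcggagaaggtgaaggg
Usp29: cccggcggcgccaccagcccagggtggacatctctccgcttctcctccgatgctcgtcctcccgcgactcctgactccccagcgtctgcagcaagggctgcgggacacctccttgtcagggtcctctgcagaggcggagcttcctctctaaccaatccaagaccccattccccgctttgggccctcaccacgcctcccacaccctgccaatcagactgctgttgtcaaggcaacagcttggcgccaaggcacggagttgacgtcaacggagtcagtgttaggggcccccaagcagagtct
Kcnq1ot1: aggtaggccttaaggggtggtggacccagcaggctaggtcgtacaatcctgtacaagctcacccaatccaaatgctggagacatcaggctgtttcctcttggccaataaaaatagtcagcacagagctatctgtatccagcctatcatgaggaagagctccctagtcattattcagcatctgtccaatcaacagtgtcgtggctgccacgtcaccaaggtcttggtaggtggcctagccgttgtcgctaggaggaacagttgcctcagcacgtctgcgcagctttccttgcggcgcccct
Airn: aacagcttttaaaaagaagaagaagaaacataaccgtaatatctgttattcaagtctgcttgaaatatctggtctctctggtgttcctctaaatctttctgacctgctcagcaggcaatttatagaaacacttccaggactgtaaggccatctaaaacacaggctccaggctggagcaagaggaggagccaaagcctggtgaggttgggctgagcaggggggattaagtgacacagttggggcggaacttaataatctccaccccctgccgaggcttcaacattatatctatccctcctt
The Nap1l5 window held TGCCGC at 2 places, 1 before the start site and 1 after it, and the other 4 windows held none. Over all 32851 promoter windows of the same length the motif was in 11.6%, and it was in 17.9% of the 56 windows of the 38 imprinted genes that could be matched by symbol (10 genes had more than 1 window). The genes with a window that held it were Commd1, Grb10, Meg3, Nap1l5, Nnat, Plagl1, Slc22a2, Snrpn, Zdbf2 and Zim1, of which Zdbf2 held 3 matches. CpG dinucleotides numbered 25 in the Dio3 window, 17 each in those of Nap1l5 and Usp29, 9 in Kcnq1ot1 and 3 in Airn, against a median of 15 over windows of imprinted genes and 7 over all windows. The Usp29 window shares 263 bases with that of Peg3, which is transcribed the other way from a start site 147 bases away. Genes with no matched window were Impact, Kcnq1, Nap1l4, Peg10, Peg13, Rtl1 and Sgce.

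Library totals ranged from 10137668 to 21294657 counts, with the hSS1 libraries between 10137668 and 14130024. Skeletal muscle markers, summed over 10 genes, ran from 17.9 to 42280 CPM (gene counts scaled to the library total) among hSS2 control tumors and from 6.31 to 682 CPM in hSS1 tumors, and 6 markers of SyS summed to at least 927 CPM in all 46. Of the floxed genes, Pbrm1 fell in hSS2 Pbrm1-fl tumors (log2 fold change −1.27 ± 0.09 SE, edgeR adjusted p = 4.2e-12) and Arid1a in Arid1a-fl tumors (−0.95 ± 0.13, adjusted p = 7.01e-05). Arid1b in Arid1b-fl tumors (−0.80 ± 0.19, adjusted p = 0.145) and Pbrm1 in hSS1 Pbrm1-fl tumors (−0.75 ± 0.24, adjusted p = 0.193) were lower without passing the test. The library labelled hSS2 control replicate 9 had 254 CPM of Arid1a, inside the range of the Arid1a-fl tumors (239 to 288 CPM) and below every other hSS2 control (361 CPM or more), and results are given without it where that changes a call. Mouse numbers in the titles fell in 3 ranges that coincided with the floxed gene: Pbrm1-fl hSS2 mice had the highest numbers, Arid1b-fl the middle and Arid1a-fl the lowest, whereas hSS2 controls were spread over all 3 (4, 4 and 5 tumors). Each comparison was therefore also made against control tumors of the same range alone. As these were bulk tumors, fewer cells that express a gene and less of its RNA per cell cannot be told apart in any result below.

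The imprinted genes spanned a wide range of levels, and the non-coding RNAs of the Dlk1-Dio3 cluster were among the most abundant transcripts. Levels of different genes are compared only as TPM (CPM divided by annotated exon length and rescaled to the same total), given here as the median over the 13 hSS2 control tumors. Meg3, a non-coding RNA of the maternal chromosome, led with 417 TPM, above 99.7% of all genes. Gnas (the stimulatory G protein alpha subunit, 294 TPM), Rian (a maternal host RNA of small nucleolar RNAs, 281 TPM) and Cd81 (a tetraspanin, 263 TPM) came next. Their ranges over tumors overlapped, with 257 to 843 TPM for Meg3, 222 to 395 for Gnas, 199 to 417 for Rian and 214 to 307 for Cd81. The order given is that of the medians, and differences between these genes within single tumors were not tested. Nnat (neuronatin, a small membrane protein of the endoplasmic reticulum, 231 TPM) and Dlk1 (a non-canonical Notch ligand, 215 TPM) followed, with far wider ranges of 33.2 to 1983 and 57.5 to 1109.6 TPM. At the other end were Slc22a3 (0.282 TPM) and Slc22a2 (median 0), both organic cation transporters, and between them Usp29 (0.117 TPM). Together the 45 genes took between 0.487% and 1.08% of the counts of a library, and Meg3, Rian and Mirg alone took 0.0871% to 0.55%.

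**Figure D1:**
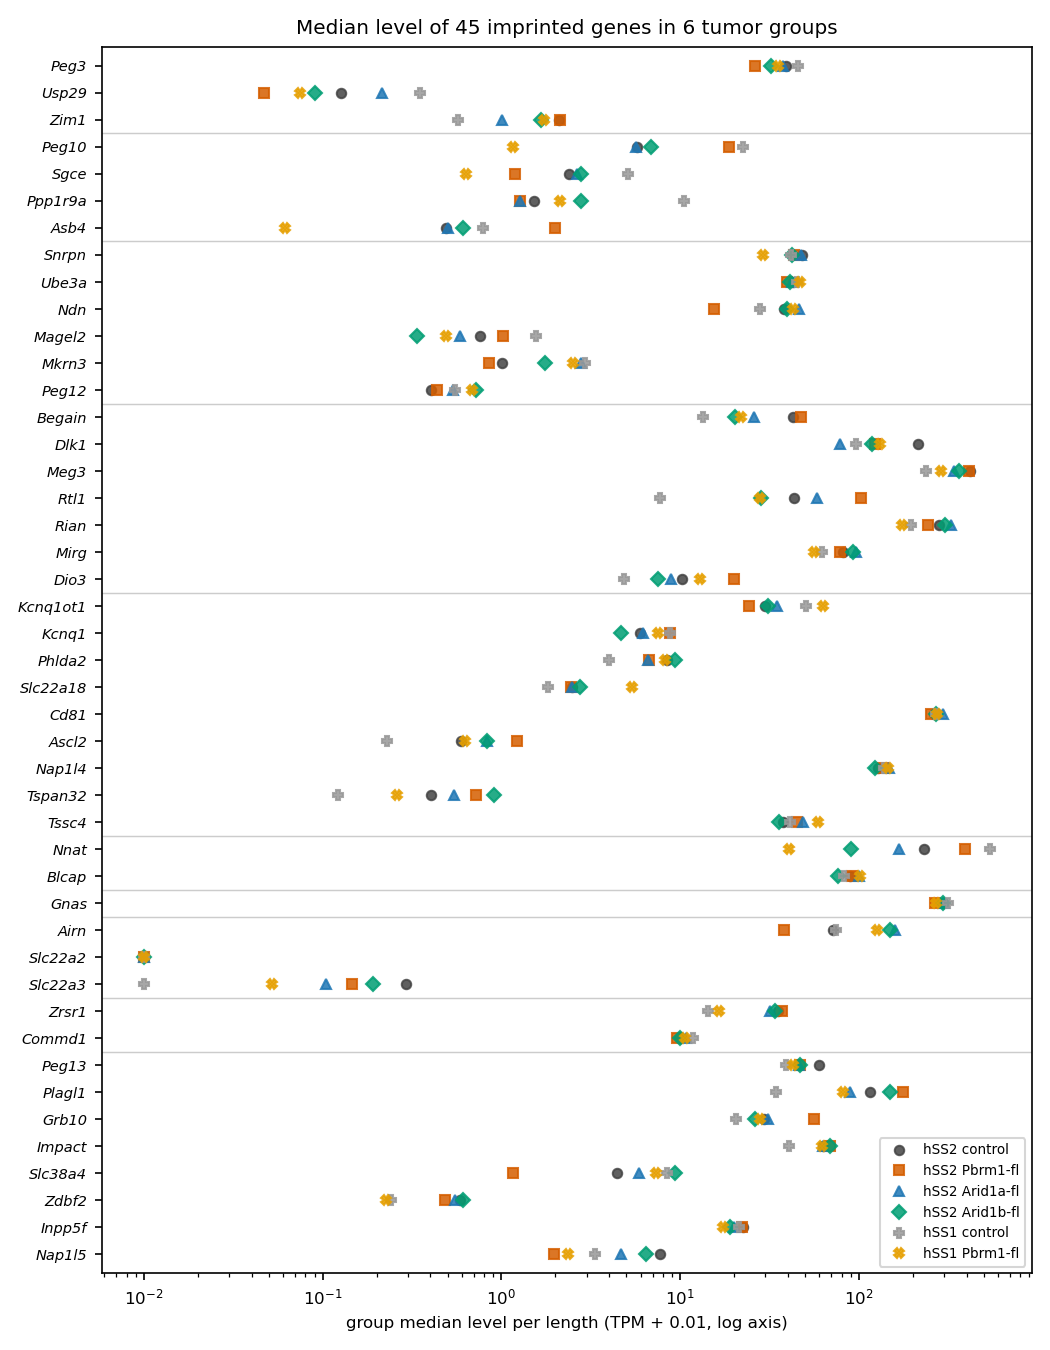
Group median level per length (TPM + 0.01, log axis) of the 45 imprinted genes, with 1 row per gene, rows ordered by cluster and 1 symbol per tumor group. Meg3, at 417 TPM in hSS2 control tumors, and Usp29, at 0.117 TPM, are far apart, and for most genes the 6 medians lie close together beside that range.

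In the Dlk1-Dio3 cluster on chromosome 12 the maternal non-coding RNAs were abundant in every group. Meg3 ranged over 1106 to 3593 CPM (median 1827) in hSS2 control tumors, 1113 to 2890.2 CPM (median 1765) in Pbrm1-fl, 424 to 2589.8 CPM (median 1500.1) in Arid1a-fl and 980.2 to 2282 CPM (median 1754) in Arid1b-fl. These ranges overlapped widely, and 1 Arid1a-fl tumor stood below all the others. In hSS1, Meg3 was 644, 1089.6, 1212, 751 and 1256 CPM in the 5 controls and 1218, 576, 1308 and 1858 CPM in the 4 Pbrm1-fl tumors. Rian had group medians of 1069 to 1457 CPM in hSS2 and 776 to 863 CPM in hSS1, and Mirg, which hosts microRNAs, had 136 to 175 and 99 to 109 CPM. Among the paternal genes of the cluster, Dlk1 ran over 77.3 to 1479 CPM (median 285) in hSS2 controls, with medians of 166, 109.8 and 165 CPM in Pbrm1-fl, Arid1a-fl and Arid1b-fl tumors, and 141 and 178 CPM in hSS1 controls and Pbrm1-fl tumors. Rtl1, a retrotransposon-derived gene of placenta and fetal muscle, had medians of 66.9, 157, 89.7 and 44.3 CPM across hSS2 control, Pbrm1-fl, Arid1a-fl and Arid1b-fl tumors, and 12.7 and 43.7 CPM in hSS1. Begain, a guanylate kinase-associated protein encoded at the edge of the cluster, varied over 16.3 to 328 CPM among hSS2 controls alone. Dio3 had the lowest median of the cluster in hSS2 controls, at 4.93 CPM.

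The Kcnq1ot1 cluster on chromosome 7 combined abundant, rather even genes with genes near the detection limit. Kcnq1ot1 itself, expressed from the paternal chromosome, ranged over 395 to 1102 CPM (median 647) in hSS2 control tumors, 473 to 666 CPM (median 538) in Pbrm1-fl, 722 to 889.7 CPM (median 836) in Arid1a-fl and 461 to 1153 CPM (median 722) in Arid1b-fl. It was 1235, 1198, 1462, 764 and 1877 CPM in the hSS1 controls and 1455, 1751, 511 and 1338 CPM in the hSS1 Pbrm1-fl tumors. Both hSS1 medians (1235 and 1397 CPM) were above those of every hSS2 group, a difference in which the fusion gene and the separately deposited table cannot be told apart. Cd81 (145 to 224 CPM over all hSS2 tumors), Nap1l4 (a nucleosome assembly protein, 71.3 to 135 CPM) and Tssc4 (an assembly factor of the U5 snRNP, 10.9 to 34.1 CPM) varied little. Kcnq1, the potassium channel subunit around Kcnq1ot1, had medians of 5.03 to 9.13 CPM over the 6 groups. Phlda2, which restrains placental growth, had medians of 1.14 to 2.49 CPM, the transporter Slc22a18 of 0.802 to 2.18 CPM, the tetraspanin Tspan32 of 0.174 to 1.37 CPM, and Ascl2, a transcription factor of the trophoblast, of 0.0917 to 0.48 CPM. Levels under 1 CPM rest on few reads, since in these libraries a count of 0 allows up to 0.141 to 0.296 CPM (3 counts, for counting error only).

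Other clusters showed the same contrast between steady and erratic genes. In the Snrpn-Ube3a cluster, Ube3a, a ubiquitin ligase with 27.3% of its exon length under exons on the other strand (Snhg14 among them), stayed at 153 to 296 CPM over all hSS2 tumors and Snrpn, a spliceosomal protein, at 15.9 to 45.3 CPM, whereas Ndn (necdin, a MAGE family growth regulator) ran over 2.96 to 84.2 CPM. Its neighbors Magel2, also of the MAGE family, and Mkrn3, a RING finger protein, had hSS2 group medians of 0.365 to 1.14 and 0.517 to 1.74 CPM, and Peg12, of the Frat family of GSK3 inhibitors, reached at most 1.66 CPM. In the Peg3 cluster the zinc finger gene Peg3 ran over 13.1 to 336 CPM (median 126) in hSS2 controls, with medians of 85.3, 122 and 105 CPM in Pbrm1-fl, Arid1a-fl and Arid1b-fl tumors, while Zim1, another zinc finger gene, ran over 0.0589 to 58.7 CPM in controls. The tumor with 13.1 CPM of Peg3 and 0.0589 CPM of Zim1 was the library labelled hSS2 control replicate 9. In the Peg10-Sgce cluster Peg10, a retrotransposon-derived gene needed for the placenta, ran over 0.816 to 35.4 CPM (median 9.23) in hSS2 controls and Sgce, which encodes epsilon-sarcoglycan, over 0.297 to 18.5 CPM (median 6.29). Ppp1r9a (neurabin, an actin-binding scaffold, 0.339 to 110 CPM) and Asb4 (an ankyrin repeat and SOCS box protein, 0.0589 to 3.08 CPM) of this cluster also varied by more than an order among those 13 tumors.

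Nnat spanned 14.4 to 863 CPM in hSS2 controls, while Blcap, in whose intron Nnat lies, spanned only 53.2 to 136 CPM. Gnas stayed at 483 to 1158 CPM over all hSS2 tumors. Airn had medians of 62.7, 32.8, 145 and 132 CPM in the hSS2 control, Pbrm1-fl, Arid1a-fl and Arid1b-fl groups and 67.4 and 109 CPM in hSS1 controls and Pbrm1-fl tumors. Slc22a2, one of the transporters that Airn is known to silence in placenta, was at 0 in 41 of 46 libraries, and Slc22a3 in 12. Zrsr1, a splicing-factor-like gene inside an intron of Commd1, had medians of 35.2 to 39.7 CPM in hSS2 and 16.5 to 17.7 CPM in hSS1, where fusion and table again cannot be told apart, and Commd1, a copper-handling and NF-kB regulator, had 13.7 to 17.5 CPM over the 6 groups. Among the genes that stand alone, Plagl1, a zinc finger growth regulator, had medians of 224, 333, 165 and 290 CPM in hSS2 control, Pbrm1-fl, Arid1a-fl and Arid1b-fl tumors and 69.9 and 156 CPM in hSS1. Grb10, an adaptor that restrains insulin receptor signaling, had 64.6, 122, 69.8 and 58.9 CPM in the same order, and 47.9 and 61.9 CPM in hSS1. Impact (a regulator of the amino acid-sensing kinase GCN2), Peg13 (a non-coding RNA in an intron of Trappc9) and Inpp5f (an inositol phosphatase) had medians of 54.5 to 85.8, 44.7 to 68 and 35.1 to 44.3 CPM over the 6 groups. Slc38a4, an amino acid transporter, ran over 0.0511 to 88.6 CPM in hSS2 tumors, and Zdbf2, a zinc finger gene, over 0.25 to 9.33 CPM. Of the 45 genes, 35 were above 0 in every library.

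In order to ask which imprinted genes differ when PBAF is disrupted, hSS2 Pbrm1-fl tumors were compared with hSS2 controls. Nap1l5 fell and Dio3 rose, and no other imprinted gene passed the test. Of the 45 genes, 42 were abundant enough to be tested (Peg12, Slc22a2 and Slc22a3 were not), and 2 of 42 passed (4.76%), against 7.35% of all 20083 genes tested (edgeR quasi-likelihood test, Benjamini-Hochberg adjusted p under 0.05). An unadjusted p under 0.05 was reached by 11 of the 42, 3 higher and 8 lower (26.2%, against 22.4% of all genes). The median log2 fold change over the 42 was −0.14, against −0.004 over all genes. The summed muscle markers had a median of 211 CPM in Pbrm1-fl and 3648 CPM in control tumors, and with the muscle score as a covariate Nap1l5 (log2 fold change −2.38, adjusted p = 0.00109) and Dio3 (1.19, adjusted p = 0.0307) still passed.

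Nap1l5 was 0.848, 0, 0.807, 0.872, 1.79, 1.37, 1.06 and 0.818 CPM in the 8 Pbrm1-fl tumors, against a lowest, median and highest value of 1.65, 3.41 and 14.6 CPM in the 13 hSS2 controls. All 8 Pbrm1-fl tumors lay below the control median and 7 lay below the whole control range. The fall was 4.98-fold (log2 fold change −2.32 ± 0.45 SE, adjusted p = 0.00129) and passed the test whichever of the 37 hSS2 libraries was left out. The counts behind it were low, 0 to 28 reads a tumor in Pbrm1-fl and 29 to 215 in controls, and the tumor at 0 allows up to 0.171 CPM. Against the 4 control tumors of the same mouse number range, which had 1.65 to 5.08 CPM, it was −1.76 on the log2 scale and missed the threshold (adjusted p = 0.067). Herc3, the gene around Nap1l5, had a value of 0.12 ± 0.17 (adjusted p = 0.712), and no annotated exon of another gene overlaps those of Nap1l5.

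Dio3 was 8.01, 10.6, 27.4, 14.8, 9.01, 8.55, 11.2 and 6.29 CPM in the Pbrm1-fl tumors, against a lowest, median and highest value of 1.05, 4.93 and 10.9 CPM in controls. All 8 tumors exceeded the control median and 3 exceeded the control range. The highest control was the library labelled hSS2 control replicate 9, and 7 of 8 tumors exceeded the range of the other 12 controls (highest 7.50 CPM). The rise was 2.30-fold (log2 fold change 1.20 ± 0.34, adjusted p = 0.0242), and the value was 1.31 (adjusted p = 0.0154) without that control. It rested in part on replicate 3, with 27.4 CPM, without which the value fell to 0.90 (adjusted p = 0.106), and against controls of the same mouse number range it was 1.20 with an adjusted p of 0.246. In the rest of its cluster, the log2 fold changes of Meg3 (−0.13), Rian (−0.30), Mirg (−0.16), Dlk1 (−0.50), Rtl1 (0.53) and Begain (0.01) had adjusted p-values of 0.382 or more.

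Airn and Usp29 came nearest to the threshold among the rest. Airn was 87.1 CPM in Pbrm1-fl replicate 1 and 26.7 to 36.9 CPM in the other 7, against 19.2 to 219.7 CPM (median 62.7) in controls. Its log2 fold change of −1.28 ± 0.41 had an adjusted p of 0.0513 (0.0458 without the library labelled hSS2 control replicate 9). Against controls of the same mouse number range, which had 19.2 to 82.9 CPM, it was −0.31 with an adjusted p of 0.888. Igf2r, which lies antisense to Airn, had a log2 fold change of −0.22 ± 0.17 (adjusted p = 0.465). Usp29 was at 0 to 0.653 CPM in Pbrm1-fl and at 0 to 7.88 CPM in controls (log2 fold change −2.65 ± 0.92, adjusted p = 0.0724), with 0 to 10 reads a tumor in Pbrm1-fl. By length, 14.3% of the Usp29 exons overlap exons of Zim3 on the other strand, so its counts are uncertain in every comparison. Peg13 (−0.40, adjusted p = 0.075) and Kcnq1ot1 (−0.32, adjusted p = 0.114) were each below the control median in 7 of 8 tumors, and Kcnq1ot1 passed with the muscle score as a covariate (−0.38, adjusted p = 0.0279). DESeq2 called 5 of the genes in this comparison, with Airn, Usp29 and Peg13 beside Nap1l5 and Dio3, against 2282 of 25980 genes in all.

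**Figure D2:**
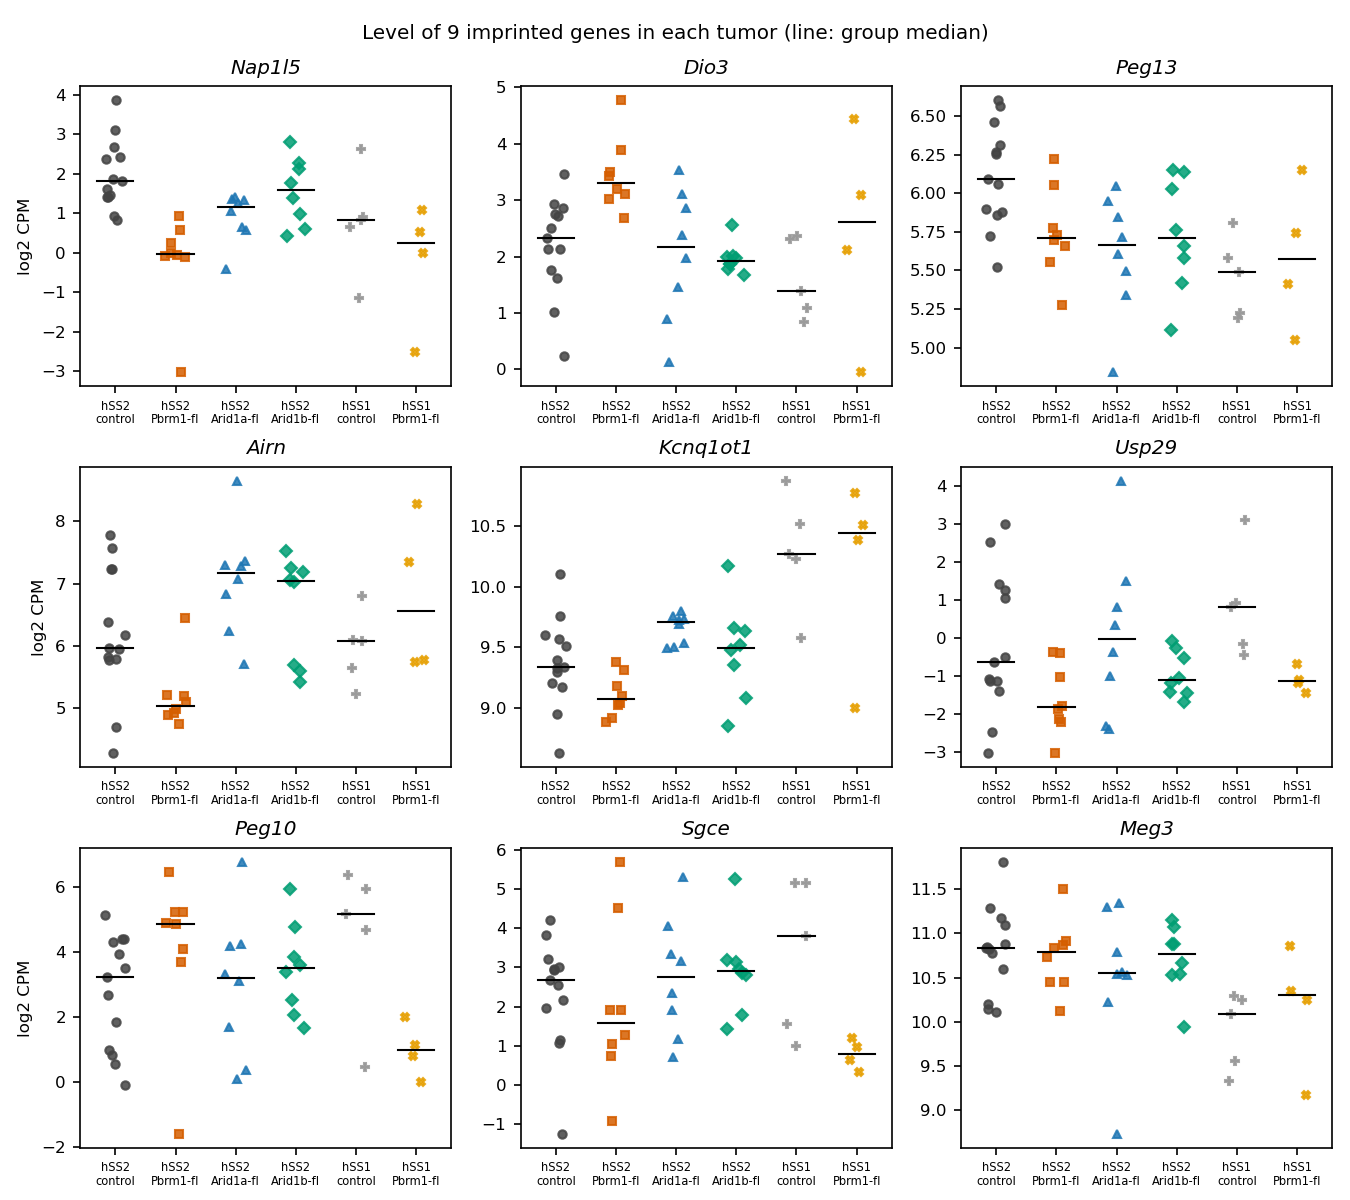
Level of 9 imprinted genes in each tumor as log2 CPM (prior count of 2), with 1 symbol per tumor, tumors grouped by genotype along the x axis and the group median as a line. Pbrm1-fl tumors lie low for Nap1l5 (median 0.86 CPM against 3.41 CPM in hSS2 controls) and high for Dio3 (9.80 against 4.93 CPM), while hSS1 Pbrm1-fl tumors lie low for Peg10 (median 1.80 CPM against 36.4 CPM in hSS1 controls).

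Loss of Arid1a, a subunit of canonical BAF, was examined by comparing hSS2 Arid1a-fl tumors with the same 13 controls. Peg13 (chr15:72805600-72810324, minus strand, build GRCm38) fell, and no other imprinted gene passed the test. That is 1 of 42 genes tested (2.38%), against 3.17% of all genes, and 6 of 42 had an unadjusted p under 0.05 (14.3%, against 23.0% of all). The median log2 fold change was −0.03 over the 42 and −0.04 over all genes. Peg13 was 28.5, 66, 61.7, 48.7, 45.1, 57.5, 52.5 and 40.4 CPM in Arid1a-fl tumors and 45.9 to 97.3 CPM (median 68) in controls. All 8 Arid1a-fl tumors lay below the control median and 3 below the control range. The fall was 1.46-fold (log2 fold change −0.55 ± 0.14, adjusted p = 0.036). It did not pass when Arid1a-fl replicate 1, 5, 7 or 8 or control replicate 12 was left out (adjusted p up to 0.102), nor against controls of the same mouse number range (−0.46, adjusted p = 0.0922). Trappc9, which surrounds Peg13, had a log2 fold change of −0.08 ± 0.14 (adjusted p = 0.742).

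Markers of other cell types and of dividing cells stood at other median levels in these groups, with edgeR adjusted p-values of 0.159 or more. The summed adipocyte markers (5 genes) were 0.208 to 17.4 CPM (median 3.52) in Arid1a-fl and 0.297 to 133 CPM (median 11.96) in control tumors, with a median log2 fold change of −2.99. The skeletal muscle markers (10 genes) were 6.73 to 11360 CPM (median 1514) in Arid1a-fl tumors and had a median log2 fold change of −1.39, and the 6 proliferation markers were 225 to 1598 CPM (median 679), against 76.1 to 1248 CPM (median 276) in controls. With the muscle score as a covariate Peg13 still passed (−0.54, adjusted p = 0.0413), and the part of adipocyte content and cell division was not tested.

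Nap1l5 was also low in Arid1a-fl tumors, at 1.37, 1.97, 2.43, 2.42, 2.29, 2.54, 1.45 and 0.631 CPM, all 8 of them below the control median. Its log2 fold change of −1.34 ± 0.42 had an adjusted p of 0.065, which was 0.0245 (log2 fold change −1.81) against controls of the same mouse number range. Here Herc3 fell, from a median of 48.7 CPM in controls to 28.8 CPM (log2 fold change −0.93 ± 0.17, adjusted p = 0.00639). Of the others with an unadjusted p under 0.05, Tssc4 (0.41, adjusted p = 0.0707) and Cd81 (0.18, adjusted p = 0.0934) had log2 fold changes above 0, and Dlk1 (−1.41, adjusted p = 0.122) and Zim1 (−1.86, adjusted p = 0.171) below 0. DESeq2 called 4 imprinted genes here, with Nap1l5, Tssc4 and Cd81 beside Peg13, against 1740 of 22896 genes in all.

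No imprinted gene passed the test in Arid1b-fl tumors. With edgeR 0 of 42 passed, against 11 of 20083 genes (0.0548%), and with DESeq2 also 0, against 18 of 29835 genes. An unadjusted p under 0.05 was reached by 4 of 42 genes (9.52%, against 6.22% of all genes), with log2 fold changes of 0.14 for Cd81, −2.12 for Nnat, −1.93 for Usp29 and −0.33 for Peg13 and adjusted p-values of 0.697 or more. Nnat was 18 to 91.2 CPM in Arid1b-fl tumors, inside the control range of 14.4 to 863 CPM. Arid1b RNA itself did not pass the test in this group.

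Pbrm1-fl and Arid1a-fl tumors were then compared with each other, since both comparisons above share their controls and are not independent. Directly compared, 4 of 42 imprinted genes differed (9.52%), against 12.3% of all genes: Airn, Kcnq1ot1 and Usp29 were lower in Pbrm1-fl than in Arid1a-fl tumors and Dio3 was higher. An unadjusted p under 0.05 was reached by 11 of 42 (26.2%, against 26.8% of all genes). Kcnq1ot1 was 484, 528, 521, 549, 666, 473, 579.7 and 636 CPM in Pbrm1-fl tumors and 844, 828, 724, 867, 889.7, 722, 854 and 742 CPM in Arid1a-fl tumors, the 1 gene of the 42 whose values did not overlap, against 1.93% of all 20083 genes tested. The difference was 1.44-fold (log2 fold change −0.53 ± 0.14, adjusted p = 0.00961). Airn was 26.7 to 87.1 CPM in Pbrm1-fl and 52, 114, 134, 75.2, 155, 164, 403 and 157 CPM in Arid1a-fl tumors. It was 3.91-fold lower (log2 fold change −1.97 ± 0.45, adjusted p = 0.0039), with 7 of 8 Pbrm1-fl tumors below the whole Arid1a-fl range. Both calls held whichever of the 37 libraries was left out.

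Usp29 was 0.0942, 0.171, 0, 0.109, 0.639, 0.653, 0.375 and 0.153 CPM in Pbrm1-fl and 17.6, 1.64, 0.652, 1.14, 2.73, 0.381, 0.0693 and 0.0789 CPM in Arid1a-fl tumors. The log2 difference of −3.44 ± 0.99 (adjusted p = 0.0182) leaned on Arid1a-fl replicate 1, at 17.6 CPM, without which it was −1.77 (adjusted p = 0.195). Dio3 was higher by 1.24 ± 0.39 on the log2 scale (adjusted p = 0.031), a call lost without any 1 of 6 libraries: Arid1a-fl replicate 1, 4, 5 or 8 or Pbrm1-fl replicate 3 or 4 (adjusted p up to 0.0984). With each group set against controls of its own mouse number range, Usp29 passed (−5.58, adjusted p = 0.0477), while Airn (−0.95, adjusted p = 0.457), Kcnq1ot1 (−0.59, adjusted p = 0.148) and Dio3 (1.23, adjusted p = 0.304) did not. In the direct comparison the mouse number range and the genotype cannot be told apart, since no Pbrm1-fl and Arid1a-fl tumors share a range. Mkrn3 (−1.60, adjusted p = 0.0509) and Cd81 (−0.20, adjusted p = 0.058) lay just outside the threshold, and DESeq2 called both beside the other 4. Over all genes DESeq2 called 3468 of 27522. The adipocyte markers had a median log2 fold change of 2.56 in this comparison, the muscle markers of 0.55 and the proliferation markers of −0.50, with adjusted p-values of 0.135 or more, and their part in these differences was not tested.

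**Figure D3:**
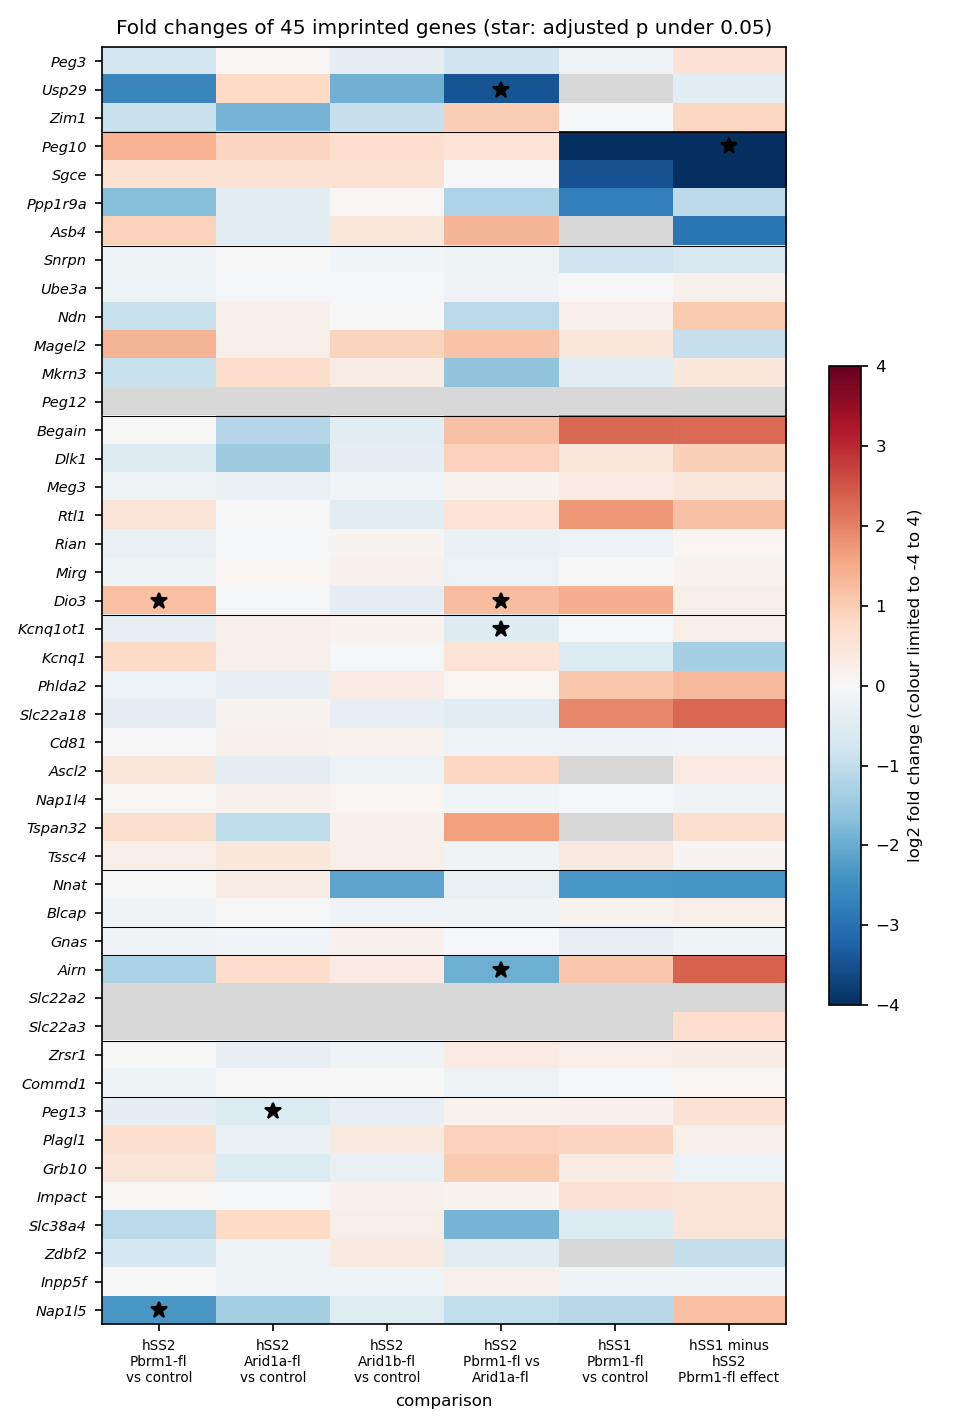
Log2 fold change of the 45 imprinted genes (rows, by cluster) in the 6 comparisons (columns), with red for higher and blue for lower, color limited to −4 to 4, gray for genes not tested and a star for an adjusted p under 0.05. Stars number 2 for Pbrm1-fl, 1 for Arid1a-fl, 0 for Arid1b-fl, 4 for the direct comparison, 0 for hSS1 and 1 for the difference between fusions, where Peg10 stands at −5.69.

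No imprinted gene passed with edgeR in hSS1 Pbrm1-fl tumors, where Pbrm1 RNA itself was lower without passing the test. Peg10 and Sgce were nevertheless far lower in all 4 Pbrm1-fl tumors than in most controls. Of 37 genes tested 0 passed, against 1 of 17786 genes (0.00562%), and 6 had an unadjusted p under 0.05 (16.2%, against 17.2% of all genes). DESeq2 called 4 imprinted genes, Nnat, Peg10, Sgce and Usp29, against 1244 of 19851 genes in all. Peg10 was 25.5, 83.6, 62.2, 36.4 and 1.19 CPM in the 5 controls and 1.56, 0.817, 3.85 and 2.05 CPM in the 4 Pbrm1-fl tumors (log2 fold change −4.31 ± 1.03, edgeR adjusted p = 0.124). Sgce was 2.76, 13.7, 35.5, 35.7 and 1.83 CPM in controls and 2.14, 1.09, 1.38 and 1.78 CPM in Pbrm1-fl tumors (−3.47 ± 0.93, adjusted p = 0.152). The same control, replicate 5, was the lowest for both genes. Without it neither gene's groups overlapped, but this was seen after the values were known and the share over all genes was not counted. Some other genes of chromosome 6 were also lower, and they are named here because their groups did not overlap. The neighbors Casd1 (−0.79 ± 0.18, adjusted p = 0.121) and Pon2 (−0.95 ± 0.19, adjusted p = 0.111), which are not counted among the imprinted genes here, were below the control range in all 4 Pbrm1-fl tumors, as were Copg2 (−0.64) and Tet3 (−0.78) farther along the chromosome. These were 2 of 25 neighbors, 1 of 7 other imprinted genes (Copg2) and 1 of 14 regulators (Tet3) without overlap, against 7.12% of all 17786 genes tested. Nnat was 343, 251, 90.4, 316 and 146 CPM in controls and 10.7, 18.2, 18.1 and 133 CPM in Pbrm1-fl tumors (−2.34 ± 0.81, adjusted p = 0.208). Usp29 was 0.566 to 8.56 CPM in controls and 0.195 to 0.454 CPM in Pbrm1-fl tumors. Snrpn, at 23.3, 42.6, 24.9, 17.8 and 23.1 CPM in controls and 14.3, 13.3, 16.1 and 16.4 CPM in Pbrm1-fl tumors, was the 1 gene of the 37 whose groups did not overlap (−0.81 ± 0.25, adjusted p = 0.18), against 7.12% of all 17786 genes tested. Slc22a18 (1.93, adjusted p = 0.218) and Impact (0.57, adjusted p = 0.246) had log2 fold changes above 0. The 6 proliferation markers summed to 698 to 1846 CPM in hSS1 controls and 390 to 1060 CPM in hSS1 Pbrm1-fl tumors, and their part in these differences was not tested.

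Whether the Pbrm1-fl effect differed between the fusions was tested as the effect in hSS1 minus that in hSS2, over all 46 tumors. Pbrm1 itself was 98.25 to 252.9 CPM (median 219.5) in hSS1 Pbrm1-fl tumors, against a control median of 343 CPM. In hSS2 Pbrm1-fl tumors it was 94.1 to 134.1 CPM (median 99.47), against a control median of 255.3 CPM. The fusion and the degree of Pbrm1 loss therefore cannot be told apart in this difference. Peg10 (chr6:4747306-4760517, plus strand, build GRCm38) was the 1 imprinted gene of 43 tested to pass (2.33%, against 2.86% of 21725 genes), and 8 of 43 had an unadjusted p under 0.05 (18.6%, against 18.9% of all). In hSS2, Peg10 was 29, 17.2, 12.8, 30, 88.1, 37.8, 37.6 and 0.204 CPM in Pbrm1-fl tumors, against 0.816 to 35.4 CPM (median 9.23) in controls, a log2 fold change of 1.40 ± 0.75 (adjusted p = 0.268). Thus 7 of 8 hSS2 Pbrm1-fl tumors lay above their control median and 4 of 4 hSS1 Pbrm1-fl tumors below theirs. The difference of −5.69 ± 1.54 on the log2 scale (adjusted p = 0.0347) passed with the muscle markers as a covariate (−5.73, adjusted p = 0.03). It did not pass when any 1 of 6 of the 46 libraries was left out: hSS1 control replicate 2 or 3, hSS1 Pbrm1-fl replicate 1, 2 or 4, or hSS2 Pbrm1-fl replicate 5 (adjusted p up to 0.095). It also missed the threshold against controls of the same mouse number range (−6.20, adjusted p = 0.132). Sgce, whose start site lies 99 bases from that of Peg10 on the other strand, differed by −4.08 ± 1.30 (adjusted p = 0.0731), and Airn by 2.37 ± 0.72 (adjusted p = 0.0582). DESeq2 called both beside Peg10, against 1160 of 23918 genes in all. The neighbors Casd1 (−0.68 ± 0.25, adjusted p = 0.123) and Pon2 (−0.78 ± 0.32, adjusted p = 0.174) did not pass. Ppp1r9a (−1.06) and Asb4 (−2.94) of the same cluster had adjusted p-values of 0.723 and 0.283.

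Many of these genes differed between tumors of a single genotype more than most genes of their level. For each tested gene, the spread between tumors of a group (the edgeR dispersion) was divided by the spread usual at that level, and the result ranked among all genes. Of the 42 imprinted genes, 16 lay above the 90th percentile in hSS2 (38.1%, where 10% of all genes lie by definition) and 31 above the median, with a median percentile of 72.0. In hSS1, with other animals, 13 of 37 lay above the 90th percentile (35.1%) and 29 above the median, with a median percentile of 81.0. No test was made of these shares. The most variable in hSS2 were Nnat (percentile 98.8), Slc38a4 (98.3), Peg10 (97.5), Begain (97.1), Ppp1r9a (96.7), Dlk1 (96) and Rtl1 (95.4), whereas Cd81 (3.89), Ube3a (14), Commd1 (14.3) and Nap1l4 (17.9) were steady. In hSS1 Slc38a4 (99.2), Ppp1r9a (98.9) and Begain (98.7) came first.

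**Figure D4:**
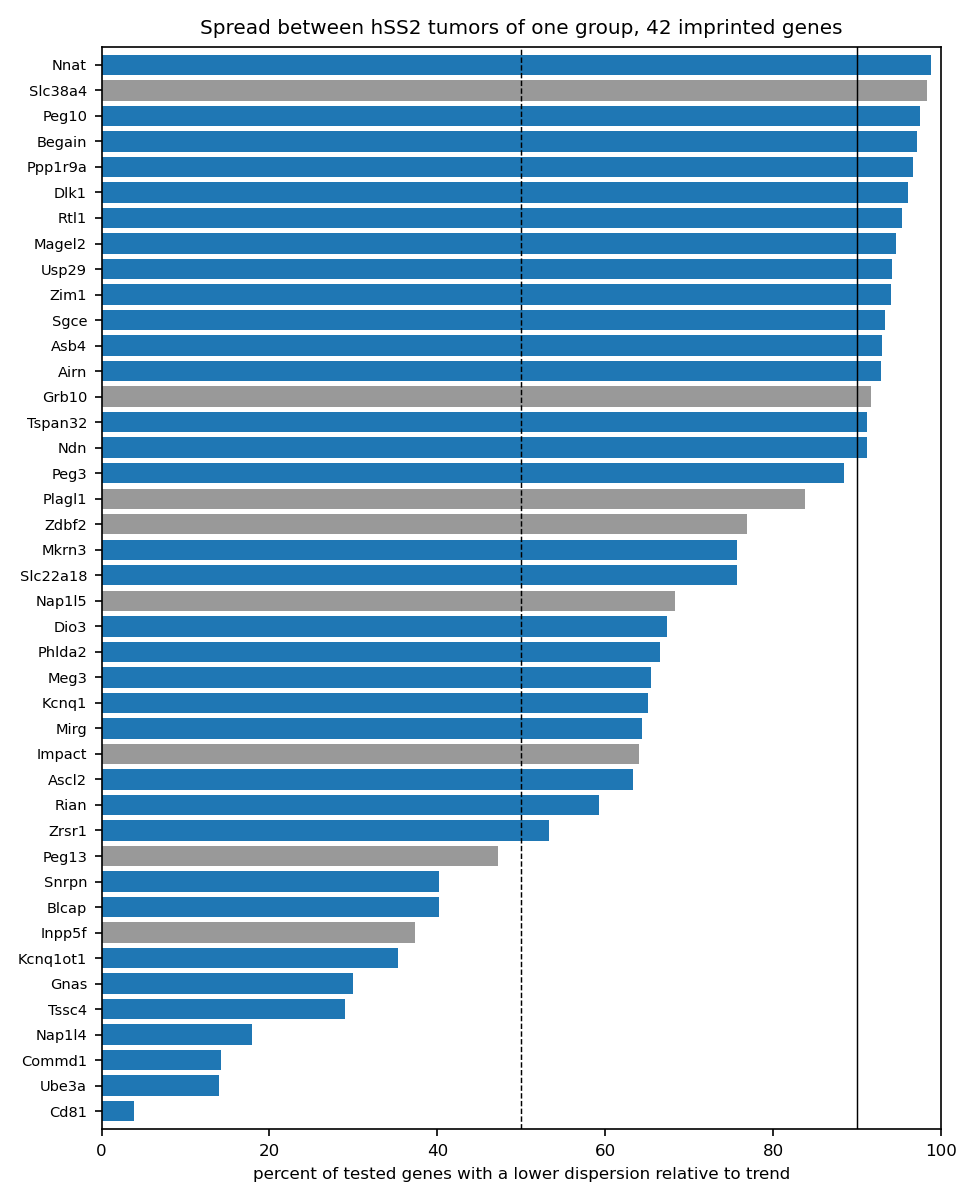
Percent of the 20083 tested genes with a lower dispersion relative to the trend (x axis, 0 to 100) for each of the 42 tested imprinted genes in hSS2, with blue bars for genes in clusters and gray for genes that stand alone, a dashed line at the median and a solid line at the 90th percentile. Bars of 16 genes pass the solid line and 31 pass the dashed one, from Nnat at 98.8 down to Cd81 at 3.89.

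Single tumors held many of the extremes, with 44 genes counted (all but Slc22a2). Arid1a-fl replicate 1 had the highest level of its 8 tumors for 12 genes, among them Peg3, Usp29, Peg10 and Nnat, and the lowest for 13, among them Meg3, Rian, Mirg, Dlk1, Rtl1, Dio3, Airn, Peg13 and Plagl1, where an even share would be 5.5 of each. Pbrm1-fl replicate 8 had the lowest level of 17 genes, among them all 4 of the Peg10-Sgce cluster, Meg3, Rian, Mirg, Nnat, Plagl1 and Grb10. The mean log2 CPM of the 10 muscle markers was −1.54 and −0.43 in these tumors, and Arid1a-fl replicate 1 had the highest proliferation score of its group (7.31 as mean log2 CPM of 6 genes). The part of muscle content and cell division in these extremes was not tested. In hSS1, control replicate 2 held the highest of 5 tumors for 20 genes and the lowest for 0. Of 4 markers of muscle progenitors it was also the highest for Myf5 (8.07 CPM, group median 0), Myod1 (8.48 CPM, median 0.0708) and Myog (22.6 CPM, median 0). Pax7 was highest in control replicate 1. The part of such cells was not tested.

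Some pairs of imprinted genes moved together from tumor to tumor and others did not. For 19 pairs, most of them within a cluster, the deviations of log2 CPM from the group mean were correlated over the 37 hSS2 tumors, with 100000 permutations within groups and adjustment over the 19. Of these 13 passed, 1 of them with a negative r, and 11 passed once the muscle score was removed. The smallest r to pass was 0.38, and 18.6% of all pairs of the 20083 tested genes had an absolute r as large, while 2.77% reached 0.6. In the Dlk1-Dio3 cluster, Meg3 followed Rian (Pearson r = 0.89, Spearman rho = 0.88) and Mirg (r = 0.87, rho = 0.82), each with a permutation p of 1e-05, the smallest that 100000 permutations can give (adjusted p = 4.75e-05). Without the 2 tumors farthest from the median of Meg3 r was 0.83 and 0.79, and within the 3 mouse number ranges it was 0.92, 0.84 and 0.93 for Rian and 0.94, 0.74 and 0.85 for Mirg. Meg3 also followed Dlk1, which is expressed from the other parental chromosome (r = 0.64, rho = 0.65, r = 0.64 without the 2 farthest and 0.66 to 0.69 within ranges). Dlk1 followed Rtl1 (r = 0.68, rho = 0.75, r = 0.65 without the 2 farthest and 0.52 to 0.80 within ranges), while Meg3 with Rtl1 gave r = 0.53 (rho = 0.48) overall but −0.05 in the highest mouse number range.

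Close neighbors were also correlated, with adjusted p-values for r of 4.75e-05 for Peg3 and Usp29 to 0.00509 for Zrsr1 and Commd1. Peg3 and Usp29, with start sites 147 bases apart, had r = 0.79 and rho = 0.71 (r = 0.77 without the 2 farthest and 0.42 to 0.92 within ranges), although their levels per length were 38.9 and 0.117 TPM. Peg3 and Zim1 had r = 0.65 and rho = 0.59, and r = 0.45 without the 2 farthest tumors (0.38 to 0.73 within ranges). Peg10 and Sgce had r = 0.62 and rho = 0.63 (r = 0.65 without the 2 farthest and 0.33 to 0.76 within ranges). Ndn and Magel2 had r = 0.65 and rho = 0.69 (r = 0.58 without the 2 farthest and 0.39 to 0.85 within ranges). Nnat and Blcap had r = 0.47 and rho = 0.53 (0.24 to 0.86 within ranges), with r = −0.12 among Arid1a-fl tumors. Zrsr1 and Commd1 went in opposite directions (r = −0.52, rho = −0.48), but within the lowest, middle and highest mouse number ranges r was −0.78, −0.14 and −0.11, so it was weak within the middle and highest ranges. Within groups r was −0.70 in control, −0.63 in Pbrm1-fl, −0.75 in Arid1a-fl and 0.37 in Arid1b-fl tumors. The exons of Zrsr1 and Commd1 overlap on opposite strands (9.17% of Zrsr1 and 6.94% of Commd1 by length), and the strand setting of the counting is not given in the sources used here.

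**Figure D5:**
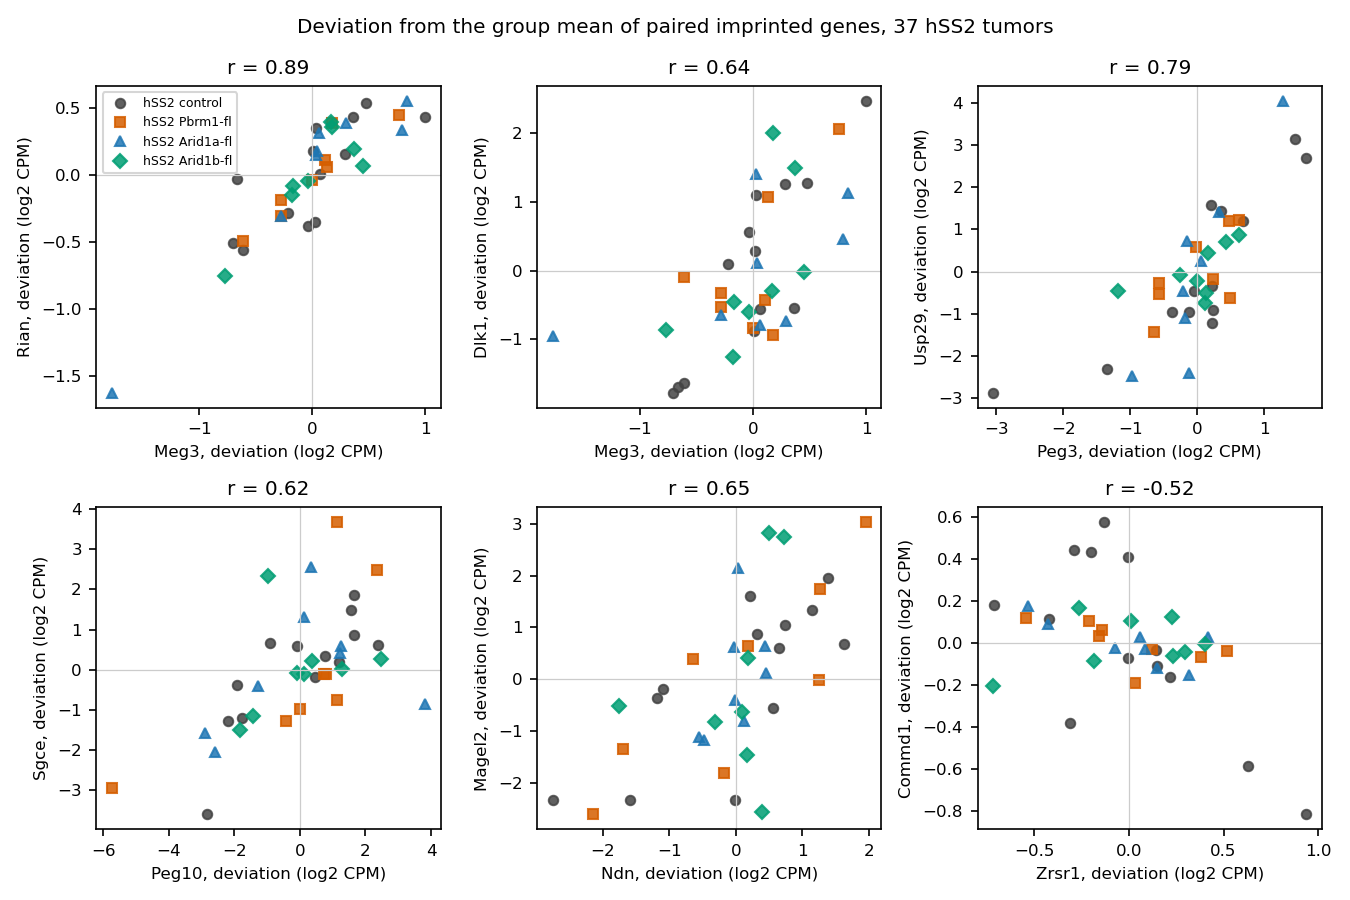
Deviation of log2 CPM from the group mean for 6 pairs of imprinted genes in the 37 hSS2 tumors, with 1 symbol per tumor, shape and color giving the group, and Pearson r over each panel. Meg3 and Rian lie on a tight line (r = 0.89) with 1 Arid1a-fl tumor far at the lower left, Peg3 and Usp29 (0.79) and Peg10 and Sgce (0.62) rise together, and Zrsr1 and Commd1 fall (−0.52).

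The remaining pairs were weaker. Kcnq1ot1 and Kcnq1 (r = 0.39, rho = 0.33, adjusted p for r = 0.0278) and Airn and Slc22a3 (r = 0.38, rho = 0.35, adjusted p = 0.0312) no longer passed once the muscle score was removed (r = 0.23 and 0.11). Kcnq1ot1 had r = 0.10 with Phlda2 and −0.27 with Slc22a18, neither past the threshold (adjusted p = 0.615 and 0.0847), although rho for the latter was −0.46 (adjusted p = 0.00711). Snrpn and Ube3a had r = 0.36 (adjusted p = 0.0513). Plagl1, which regulates other imprinted genes in mouse tissues, had r = −0.20 with Dlk1, −0.22 with Peg3 and 0.09 with Grb10, none past the threshold.

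Genes that set or guard imprints, other imprinted genes and genes beside the clusters were counted in the same fits. Of 15 regulators (among them DNA methyltransferases, TET enzymes and imprint-protecting zinc finger proteins) 14 were tested, and 1 passed in each of 3 comparisons, against 3.17% of all genes in Arid1a-fl tumors, 12.3% in the direct comparison and 2.86% for the difference between fusions. In Arid1a-fl tumors it was the maintenance methyltransferase Dnmt1, which was higher by 0.73 ± 0.20 on the log2 scale (adjusted p = 0.0466). That call was lost in 18 of 37 fits that left out a library. The proliferation markers had a median log2 fold change of 0.83 in the same comparison with 0 of 6 past the threshold, and the part of cell division was not tested. Smchd1, a chromatin protein of imprinted clusters and the inactive X, was lower in Pbrm1-fl than in Arid1a-fl tumors (log2 fold change −0.25 ± 0.08, adjusted p = 0.0298), a call lost in 7 of those 37 fits. The Pbrm1-fl effect on the demethylase Tet3 differed between hSS1 and hSS2 (−0.86 ± 0.19, adjusted p = 0.0144). Zfp57, whose product binds the motif above, had a log2 fold change of −0.98 ± 0.54 in Pbrm1-fl tumors (adjusted p = 0.288).

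Of 7 other imprinted genes, which include Igf2, 2 changed in Arid1a-fl tumors (against 3.17% of all genes), with Igf2 lower (−1.86 ± 0.49, adjusted p = 0.038, lost in 9 of 37 fits that left out a library) and the transcription factor gene Klf14 higher (5.78 ± 0.89, adjusted p = 0.000847). The same 2 of 7 differed in the direct comparison (against 12.3% of all genes), where Igf2 was higher in Pbrm1-fl than in Arid1a-fl tumors (2.62 ± 0.54, adjusted p = 0.00148) and Klf14 lower (−4.44 ± 1.02, adjusted p = 0.00388). Of 35 neighboring genes 28 were tested in hSS2. Atp10a (−1.61), Cobl (−1.14) and Ddc (−3.81) were lower in Pbrm1-fl tumors (3 of 28, against 7.35% of all genes), and Cobl (−1.48) and Herc3 (−0.93) in Arid1a-fl tumors (2 of 28, against 3.17%). Cobl, an actin nucleator, and Ddc, the aromatic amino acid decarboxylase, lie beside Grb10, which had log2 fold changes of 0.53 ± 0.37 in Pbrm1-fl (adjusted p = 0.418) and −0.53 ± 0.38 in Arid1a-fl tumors (adjusted p = 0.399). Between Pbrm1-fl and Arid1a-fl tumors 5 of 28 neighbors differed (Ctsz, Ddc, Dync1h1, Herc3 and Nipa1), against 12.3% of all genes. Kcnk9, a potassium channel gene beside Peg13, was the 1 neighbor of 29 tested whose Pbrm1-fl effect differed between the fusions (−5.20 ± 1.45, adjusted p = 0.0396), where 2.86% of all genes passed, a call lost in 7 of 46 fits that left out a library.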

How the data were processed

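RNA had been extracted from 46 whole mouse tumors, depleted of ribosomal RNA and sequenced as directional libraries. Per the labels and the processing notes of the submitters, the authors aligned reads with STAR 2.7.11 to mm10 and counted them per Ensembl gene with featureCounts 1.6.3, and deposited raw counts in 1 table for hSS2 and 1 for hSS1. The strand and multimapping settings of the counting are not given in the sources used here, so overlapping genes (Zrsr1 and Commd1, Kcnq1ot1 and Kcnq1, Snrpn and Snurf, Ube3a and Snhg14, Gnas and Nespas, Usp29 and Zim3, Tssc4 and Trpm5) share uncertain counts. Gene symbols, exon lengths and positions were taken from GENCODE M21 (91.4% and 91.2% of identifiers had a symbol), and promoter windows from RefSeq GRCm38.p6.

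Groups were taken from the sample labels. Tests were made on the deposited counts with edgeR 4.0.16 (filterByExpr, TMM scaling, robust quasi-likelihood F-test) in R 4.3.3, with Benjamini-Hochberg adjustment over all tested genes and 0.05 as threshold. All 37 hSS2 tumors shared 1 fit, the 9 hSS1 tumors another, and the difference between fusions was fitted over all 46. Log2 CPM used a prior count of 2, SE is the log2 fold change divided by the square root of F, and permutations for correlations were made within groups. DESeq2 1.42.0, RLE scaling, no filter, mouse number range, muscle score and leaving out each library were alternatives. Tumors carry separate mouse numbers, so p-values measure the spread between animals, with litters not given. No pair of libraries in a group agreed within sampling noise. The edgeR and correlation steps were tested on simulated data. The 45 genes and the other lists were chosen with earlier results of these data known. Values by sample are given for genes past a threshold and for genes of a list named with the members, and the rest by range and count. Intervals and floors cover counting error only.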

Additional observations from a re-analysis of the deposited data

Results flagged for a closer look

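The lowest or highest tumor of a group of 4 to 10 lay far from the others in 10 of 95 tests by Dixon's criterion on log2 CPM, where chance gives about 1 in 20 for a single test. The 95 tests were not independent, since the same tumors and correlated genes recur and some genes were included because they had passed a threshold. Whether 10 exceeds chance was not tested. Peg10 was 0.204 CPM in hSS2 Pbrm1-fl replicate 8, with the next tumor at 12.8 CPM, and 1.19 CPM in hSS1 control replicate 5, with the next at 25.5 CPM. Arid1a-fl replicate 1 stood apart for all 3 maternal RNAs of the Dlk1-Dio3 cluster, with Meg3 at 424 CPM (next 1193), Rian at 397 CPM (next 993) and Mirg at 49.4 CPM (next 117). Rian was also low in Arid1b-fl replicate 8, at 785 CPM with the next at 1196 CPM. Dio3 was highest in Arid1b-fl replicate 7, at 5.75 CPM with the next at 3.91 CPM, and Airn in hSS2 Pbrm1-fl replicate 1, at 87.1 CPM with the next at 36.9 CPM. Nap1l5 was 0 CPM in hSS2 Pbrm1-fl replicate 2 (next 0.807) and 0.631 CPM in Arid1a-fl replicate 8 (next 1.37).

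The Pbrm1-fl effect differed between hSS1 and hSS2, by the interaction term in edgeR, for Peg10 (−5.69 on the log2 scale, adjusted p = 0.0347), Kcnk9 (−5.20, adjusted p = 0.0396) and Tet3 (−0.859, adjusted p = 0.0144). The fusion and the degree of Pbrm1 loss cannot be told apart in these differences.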

How the results depend on the processing

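No paired analysis was possible because mouse numbers are unique and the labels give no replicate numbers shared between groups. No log2 fold change of a gene past the threshold or of a floxed gene changed sign under the alternatives run. Among the correlations, r of Kcnq1ot1 with Phlda2 went from 0.10 to −0.03 in control tumors alone and r of Plagl1 with Grb10 from 0.09 to −0.007 without the 2 farthest tumors, neither past the threshold, and 10 pairs passed in control tumors alone in place of 13. Some pairs that passed had the other sign within a group: Zrsr1-Commd1 (0.37, Arid1b-fl), Nnat-Blcap (−0.12) and Airn-Slc22a3 (−0.10) in Arid1a-fl, and Kcnq1ot1-Kcnq1 (−0.01, Pbrm1-fl). Within a mouse number range, so did Meg3-Rtl1 (−0.05, highest) and Airn-Slc22a3 (−0.02, lowest). Against controls of the same mouse number range, or with the range as a covariate, the number of imprinted genes past the threshold was 0 for hSS2 Pbrm1-fl (2 as reported), 1 for Pbrm1-fl against Arid1a-fl (4) and 0 for the difference between fusions (1). Over all genes these settings called 477 genes for hSS2 Pbrm1-fl in place of 1476, 1405 for Arid1a-fl in place of 637, 0 for Arid1b-fl in place of 11, 436 for the direct comparison in place of 2468 and 0 for hSS1 in place of 1, and for the difference between fusions 9 and 64 in place of 622; the cause was not tested. DESeq2 called 5 imprinted genes for hSS2 Pbrm1-fl, 4 for Arid1a-fl, 6 for the direct comparison, 4 for hSS1 and 3 for the difference between fusions. Over all genes it called 2282 of 25980 in hSS2 Pbrm1-fl, 1740 of 22896 in Arid1a-fl and 18 of 29835 in Arid1b-fl. The totals were 3468 of 27522 in the direct comparison, 1244 of 19851 in hSS1 and 1160 of 23918 for the difference between fusions. Without a filter on low counts 0 passed for Arid1a-fl and 0 for the difference between fusions, and with the muscle covariate 2 passed for the latter. Arid1b itself was called in Arid1b-fl tumors by DESeq2 (−0.81).

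Leaving out 1 library at a time gave 1 to 5 imprinted genes for hSS2 Pbrm1-fl, 0 to 2 for Arid1a-fl, 2 to 6 for the direct comparison, 0 to 2 for the difference between fusions and 0 for Arid1b-fl and hSS1. For Arid1b in Arid1b-fl tumors the log2 fold change was −0.96 to −0.68. Low counts limit what could be seen for Usp29, Nap1l5, Magel2, Ascl2 and the Slc22a genes.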
